A study of Rattus norvegicus with 9 samples.

Results

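The 9 genes described here, Drd1a, Drd2, Adora2a, Ppp1r1b, Rgs9, Pde10a, Penk, Pdyn, and Tac1, are genes by which striatal projection neurons are commonly recognised. They were chosen by name, among 19293 gene symbols on the array, and a gene was found through every probe whose deposited gene name equals the symbol. The 9 genes had 13 probes, and the brightest probe of a gene, by its mean log2 signal over all arrays, stands for it. Drd1a is the array's older name of the gene that RefSeq calls Drd1. Expression was measured on 9 one-color Agilent arrays, 1 per rat, from the infarcted hemisphere of male Sprague-Dawley rats on day 14, with 3 rats in each of the Sham, I/R, and DHI groups. The I/R rats had a nylon suture placed to block the middle cerebral artery for 2 h, followed by reperfusion. The DHI rats had the same surgery and received Danhong injection, a preparation of Salvia miltiorrhiza and Carthamus tinctorius, by tail vein daily until day 14. In the Sham rats the external carotid artery was exposed without a filament and the solvent was injected, while for the I/R group the sources used here do not state an injection. The ages of the rats are not given in the sources used here.

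Striatal projection neurons are the GABAergic output cells of the striatum, and in the rat a large part of the striatum lies in the territory of the middle cerebral artery. Those of the direct pathway carry the D1 dopamine receptor and make substance P and dynorphin, and those of the indirect pathway carry the D2 dopamine receptor and the adenosine receptor of Adora2a and make enkephalin. In both, dopamine and adenosine act through cAMP on the phosphatase inhibitor DARPP-32, the product of Ppp1r1b. How the hemispheres were trimmed, and so how much striatum each piece held, is not given in the sources used here. In RNA from whole tissue, fewer cells of a type and less RNA per cell cannot be told apart.

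The probes measured parts of the transcripts that can be read directly in a pair of cases, printed because each holds the codons of the peptide for which the gene is known. The Penk probe (60 bases, rn4 chr5:17509637-17509696, minus strand) holds 15 bases that encode the 5 residues of Met-enkephalin, in capitals. The codons that follow there are cgg and ttt, for arginine and phenylalanine. Only the residues were searched, and whether this copy is cut out as Met-enkephalin was not examined. The dimmer Tac1 probe (60 bases, rn4 chr4:32651286-32651345, plus strand) holds the 33 bases that encode substance P, in capitals. Both are shown 5′ to 3′.
Penk: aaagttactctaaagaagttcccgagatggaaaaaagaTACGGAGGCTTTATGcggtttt
Tac1: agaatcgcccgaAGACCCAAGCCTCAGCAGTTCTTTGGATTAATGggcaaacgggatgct

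The promoters of the 9 genes were searched for 3 motifs of the cAMP response on both strands (RefSeq, GRCr8, 250 bases before to 50 bases after the start). Whether these motifs bear on the levels of the genes was not tested. A promoter was found for 6 of the 9 genes, with 7 promoters in all. The motif TGACGTCA was in 0 of the 7 and in 1.83% of all 33469 promoters. Its shorter core TGACG, which lies inside it, was in 2 of the 7, that of Tac1 and 1 of the 2 of Pde10a, and in 21.2% of all promoters. The variant TGCGTCA was in 1 of the 7, that of Tac1, and in 1.90% of all promoters, and there it overlaps the TGACG match on the other strand. The Tac1 promoter is printed for that match (GRCr8 chr4:36645333-36645582, plus strand, the 250 bases before the start), with the motif in capitals, 208 to 202 bases before the start.
Tac1 promoter: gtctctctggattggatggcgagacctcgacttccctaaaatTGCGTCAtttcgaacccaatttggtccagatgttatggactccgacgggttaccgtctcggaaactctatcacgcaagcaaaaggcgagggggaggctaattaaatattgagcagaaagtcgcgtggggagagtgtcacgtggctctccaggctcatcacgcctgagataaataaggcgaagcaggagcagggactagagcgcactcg

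Values are log2 intensities relative to the 75th percentile of the same array, which ranged from 1816 to 3464 intensity units, so 0 is the level of that percentile. Between 75.3% and 79.0% of the non-control probes were well above background on an array, and all 13 probes of the 9 genes were so on all 9 arrays. A probe counted as such when any of its kept spots did. The 3 Sham and 3 I/R arrays lay on 1 slide and the 3 DHI arrays on another, so the DHI group and its slide cannot be told apart. The replicates are different rats, and their number limits the precision. A change was called with an unadjusted p under 0.05 and a fold change (FC) over 1.5 in limma, or with a Benjamini-Hochberg adjusted p over all 23736 probes tested.

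The 9 genes varied widely between rats of the same group. Sham 1 was the highest Sham array for 9 of 9 genes, DHI 3 the highest DHI array for 9 of 9, and DHI 1 the lowest DHI array for 9 of 9. Over all probes tested, Sham 1 was the highest of the Sham arrays for 40.7%, DHI 3 the highest of the DHI arrays for 24.8%, and DHI 1 the lowest for 54.9%, and all 3 together held for 9.37%. The median difference of Sham 1 from the mean of Sham 2 and Sham 3 was 2.93 on the log2 scale over the 9 genes and 0.01 over all probes. The median difference of DHI 3 from DHI 1 was 3.85 over the 9 genes and 0.21 over all probes. The pooled SD between arrays of a group was 0.83 for Pdyn and 2.17 for Adora2a, the lowest and the highest of the 9 genes, with a median of 1.53 against 0.34 over all probes tested. The SD of Adora2a exceeded that of 99.8% of the probes tested, and the SD of Pdyn that of 85.8%.

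**Figure D1:**
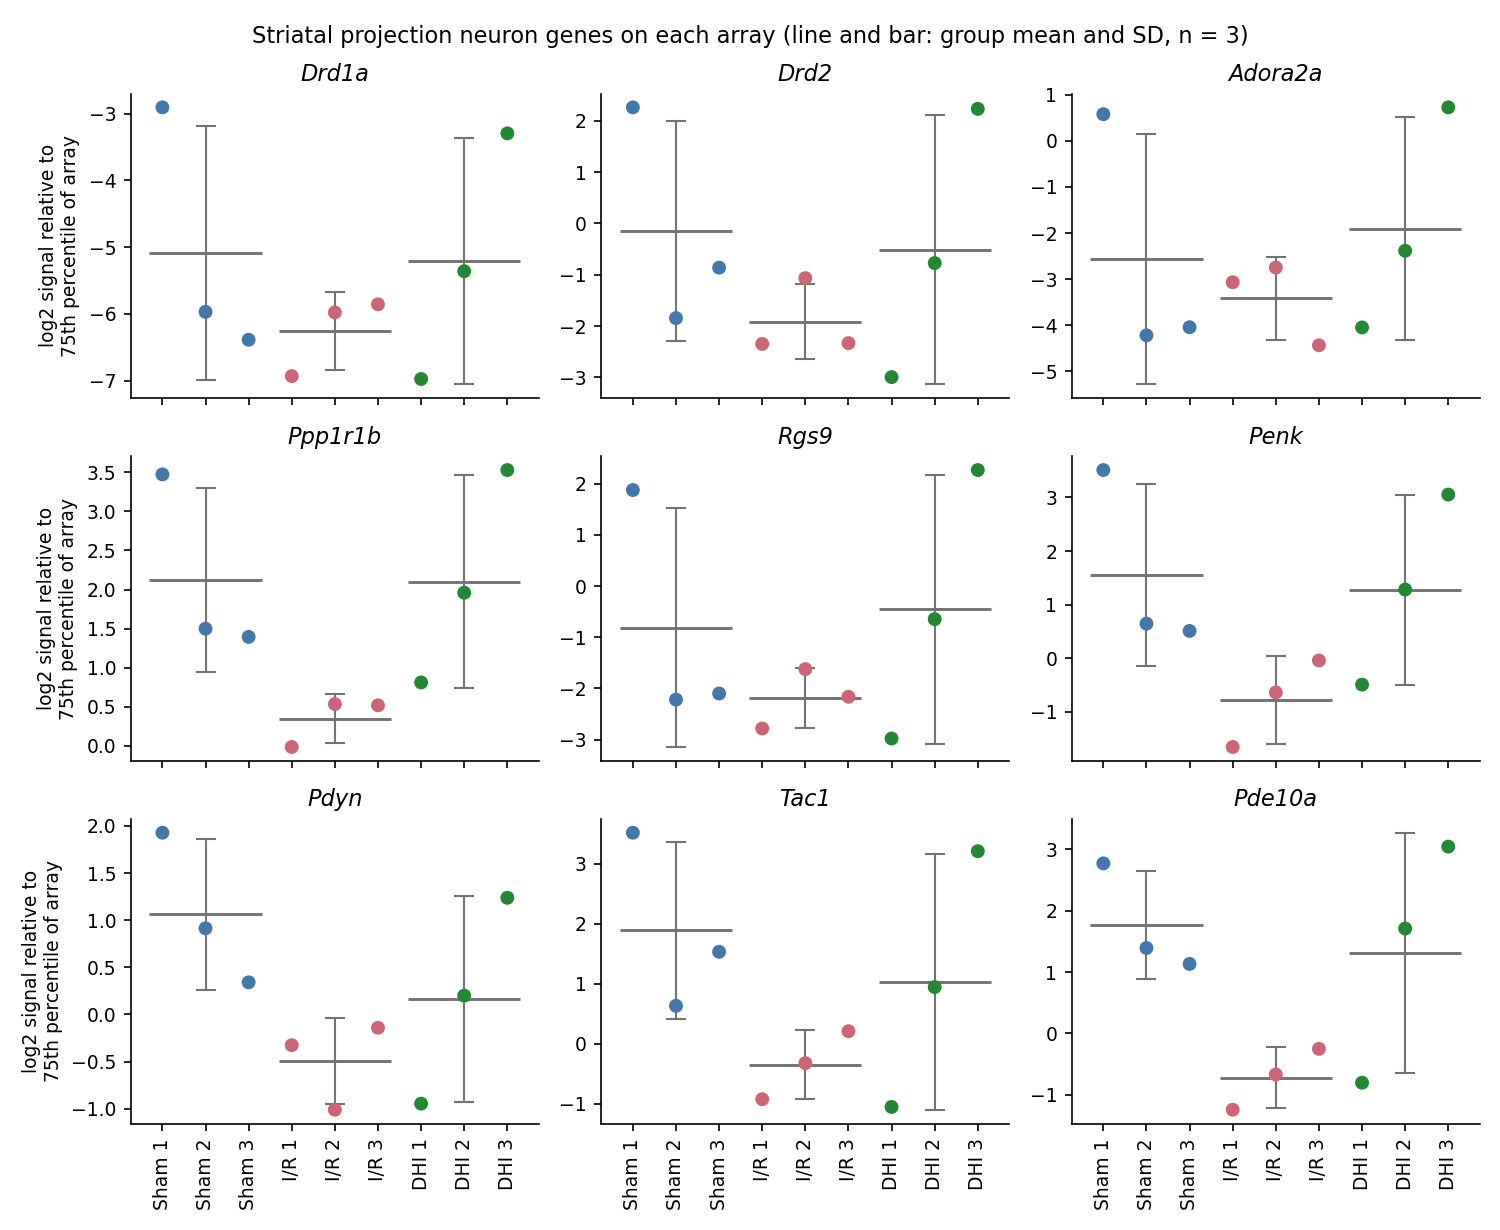
Log2 signal of the 9 genes above or below the array's 75th percentile (y axis, a separate scale for each gene) on each of the 9 arrays (x axis, Sham in blue, I/R in red, DHI in green), where the line and bar give the group mean and SD (n = 3). Sham 1 and DHI 3 stand above the other arrays of their groups for 9 of 9 genes. The I/R arrays lie below all Sham arrays for 5 of the 9, while these groups did not overlap, in either direction, for 62.6% of all probes tested.

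**Figure D2:**
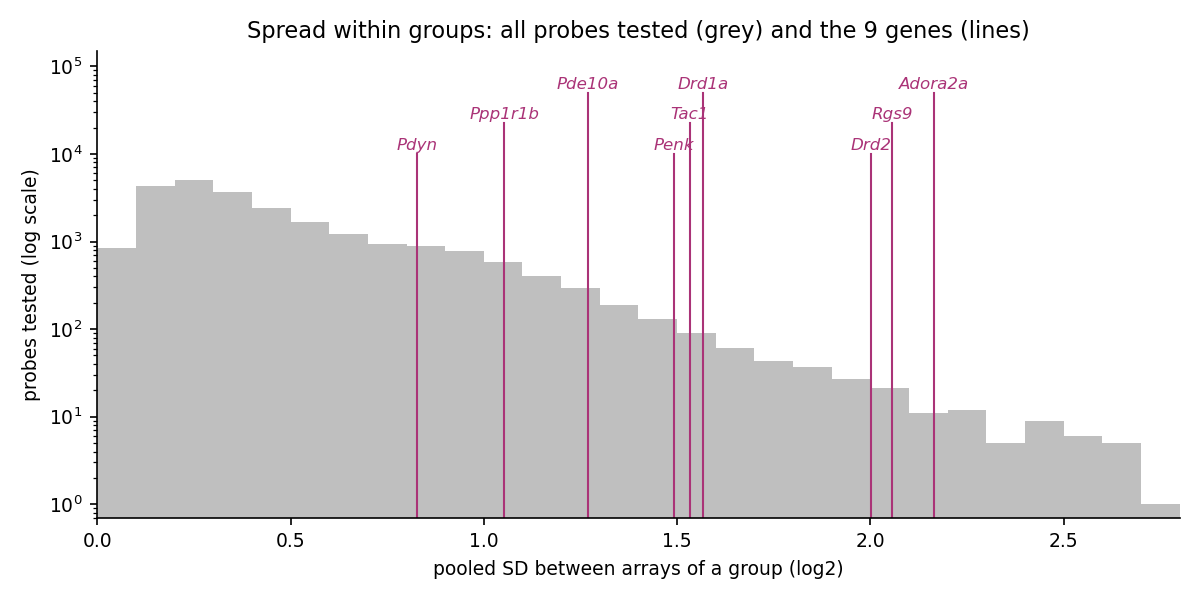
Number of probes tested (y axis, log scale) by their pooled SD between arrays of a group (x axis, log2 units, bins of 0.1 in grey), where vertical lines mark the 9 genes. Pdyn lies at 0.83 and Adora2a at 2.17, against a median of 0.34 over all probes tested.

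Among the receptors, Drd1a, the dopamine receptor of the direct pathway (rn4 chr17:16657572-16657631, plus strand), had levels of -2.90, -5.97, and -6.39 on the Sham arrays. Its levels were -6.93, -5.98, and -5.86 on the I/R arrays and -6.97, -5.36, and -3.29 on the DHI arrays. Sham 1 was 9.66 times as high as the mean of the other Sham arrays, and DHI 3 was 12.8 times as high as DHI 1. These ratios rest on 1 spot per array with a low signal on most arrays. With another background correction (normexp) the log2 fold change of Drd1a in I/R versus Sham was -0.81 instead of -1.17. Sham 2 and Sham 3 lay within the range of the I/R arrays. Drd2, the dopamine receptor of the indirect pathway (rn4 chr8:52707670-52707729, plus strand), had levels of 2.26, -1.85, and -0.86 in Sham, -2.35, -1.07, and -2.33 in I/R, and -2.995, -0.77, and 2.23 in DHI. Its Sham and I/R arrays overlapped. The dimmer Drd2 probe had the same high arrays, -3.51 in Sham 1 and -3.50 in DHI 3, with -6.05 to -5.16 on the other 7 arrays.

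Adora2a, the adenosine receptor that is paired with Drd2 in the indirect pathway (rn4 chr20:13815854-13815913, minus strand), had levels of 0.58, -4.22, and -4.04 in Sham. Its levels were -3.07, -2.75, and -4.43 in I/R and -4.05, -2.38, and 0.73 in DHI. I/R 1 and I/R 2 were thus above Sham 2 and Sham 3, and Sham 1 was 26.1 times as high as the mean of Sham 2 and Sham 3. For the 3 receptors the log2 fold changes of I/R versus Sham were -1.17 for Drd1a, -1.77 for Drd2, and -0.86 for Adora2a, with SE of 1.11, 1.42, and 1.54, and none of the 3 was called (adjusted p 0.416, 0.336, and 0.670 in limma). Without Sham 1 these values were -0.08 for Drd1a, -0.56 for Drd2, and 0.71 for Adora2a.

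Among the signaling genes, Ppp1r1b, which encodes DARPP-32 (rn4 chr10:87131412-87131471, plus strand), had levels of 3.47, 1.499, and 1.39 in Sham. Its levels were -0.01, 0.54, and 0.52 in I/R and 0.81, 1.96, and 3.53 in DHI. All 3 I/R arrays were below all Sham and all DHI arrays. Ppp1r1b fell in I/R versus Sham by 1.77 on the log2 scale (SE 0.75, 95% interval -3.51 to -0.04, adjusted p 0.0937 in limma) and was higher in DHI versus I/R by 1.75 (SE 0.75, 95% interval 0.01 to 3.49, adjusted p 0.196 in limma). The dimmer Ppp1r1b probe had fold changes of -1.62 and 1.57 in these comparisons, with groups that did not overlap, and was called in neither.

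Pde10a, the phosphodiesterase 10A that degrades cyclic nucleotides in these neurons (rn4 chr1:46392997-46393056, minus strand), had levels of 2.77, 1.39, and 1.13 in Sham. Its levels were -1.24, -0.67, and -0.25 in I/R and -0.80, 1.71, and 3.04 in DHI. The I/R arrays were below all Sham arrays, and DHI 1 lay among them. Pde10a fell in I/R by 2.49 on the log2 scale (SE 0.91, 5.60-fold, adjusted p 0.0635 in limma), the largest log2 fold change of the 9 genes in this comparison, and its dimmer probe by 2.34. Rgs9, a regulator of G protein signaling that shortens the response to dopamine (rn4 chr10:98598485-98598544, minus strand), differed from both. Its levels were 1.87, -2.22, and -2.10 in Sham, -2.78, -1.62, and -2.16 in I/R, and -2.98, -0.65, and 2.27 in DHI. Its Sham and I/R arrays overlapped, and without Sham 1 its fold change of I/R versus Sham moved from -1.38 to -0.03.

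Among the neuropeptide precursors, Penk, whose probe is printed above and which encodes the enkephalins (chr5), had levels of 3.51, 0.65, and 0.51 in Sham, -1.65, -0.64, and -0.04 in I/R, and -0.49, 1.28, and 3.05 in DHI. Pdyn, which encodes the dynorphins (rn4 chr3:117291061-117291120, minus strand), had levels of 1.93, 0.91, and 0.34 in Sham, -0.33, -1.01, and -0.14 in I/R, and -0.95, 0.20, and 1.24 in DHI. Tac1, which encodes substance P (rn4 chr4:32657551-32657610, plus strand), had levels of 3.52, 0.63, and 1.53 in Sham, -0.92, -0.32, and 0.21 in I/R, and -1.05, 0.95, and 3.21 in DHI. For all 3 precursors the I/R arrays were below all Sham arrays, and DHI 1 lay below the Sham arrays as well. The Sham and I/R groups did not overlap, in either direction, for 62.6% of all probes tested. The log2 fold changes of I/R versus Sham were -2.33 for Penk, -1.55 for Pdyn, and -2.24 for Tac1, with SE of 1.06, 0.60, and 1.09, and adjusted p of 0.111, 0.0724, and 0.131 in limma. Pdyn was called at the unadjusted p. The dimmer Tac1 probe, which holds the substance P codons, had a fold change of -2.21.

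In I/R versus Sham, which compares the hemisphere after occlusion and reperfusion with that of sham surgery, 3 of the 9 genes fell, Ppp1r1b, Pdyn, and Pde10a, and 0 rose. Of all probes tested, 43.1% were called in this comparison and 22.3% were called lower in I/R. With the adjusted p, 0 of the 9 genes passed in limma, against 15.1% of all probes called lower, and the methods' t-test called 2 at the unadjusted and 1 at the adjusted p. The log2 fold change was negative for 9 of 9 genes, with a median of -1.77 against -0.10 over all probes. The groups did not overlap for 5 of the 9 genes, Ppp1r1b, Pde10a, Penk, Pdyn, and Tac1, and for 62.6% of all probes. A model of only the Sham and I/R arrays, all on the same slide, called 5 of the 9 genes and 3 with the adjusted p, while it called 23.8% of all probes lower in I/R and 21.3% with the adjusted p.

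The count of 3 of the 9 genes in the model of all 9 arrays rested on single arrays. It was 0 of 9 when Sham 1, I/R 1, or I/R 2 was left out, and 5 of 9 when DHI 1 or DHI 3 was, since these enter the estimate of the spread. The share of all probes called, in either direction, was then 39.0% without Sham 1, and 31.7% and 33.6% without I/R 1 and I/R 2. Leaving out DHI 1 or DHI 3 gave 46.0% and 42.1%, respectively. Without Sham 1 the median log2 fold change was -1.10. The fall of Ppp1r1b was near the threshold and was called in 9 of the 20 other settings. It was lost with quantile normalization, no scaling, the series table, the mean of all probes of a gene, the methods' t-test, and on leaving out Sham 1, DHI 2, or any I/R array, among others, while that of Pde10a was lost in 3 settings and that of Pdyn in 5.

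**Figure D3:**
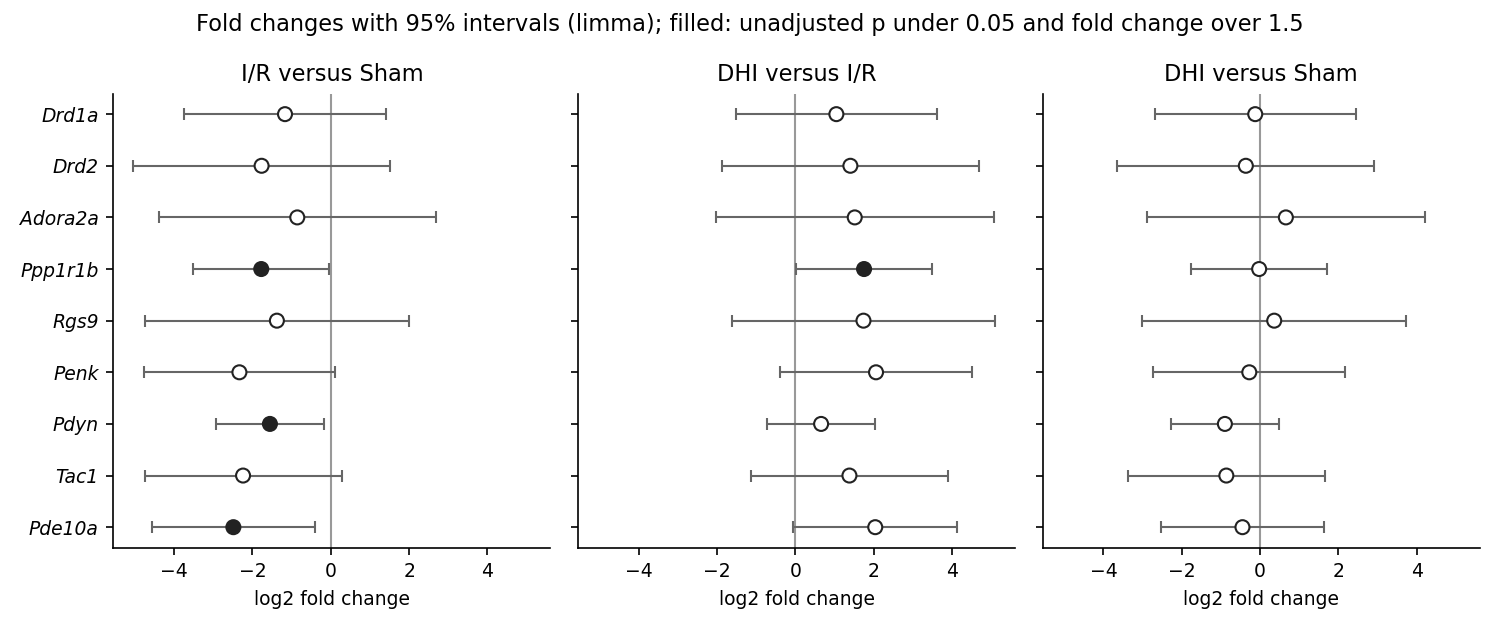
Log2 fold change of the 9 genes (x axis) in the 3 comparisons, 1 per panel, with 95% intervals from the limma model of all 9 arrays (n = 3 per group); filled points passed an unadjusted p under 0.05 and FC over 1.5. The values of I/R versus Sham are all below 0 and those of DHI versus I/R all above 0, but only 3 and 1 of the 9 genes passed these thresholds. Of all probes tested, 22.3% were called lower in I/R versus Sham and 11.5% higher in DHI versus I/R.

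In DHI versus I/R, which compares the treated with the untreated rats after the same surgery, 1 of the 9 genes rose, Ppp1r1b, and 0 fell. Of all probes tested, 21.9% were called and 11.5% were called higher in DHI. With the adjusted p, 0 of the 9 genes passed in limma, and the methods' t-test called 0 at either p. The log2 fold change was positive for 9 of 9 genes, with a median of 1.51 against 0.10 over all probes, and this comparison shares the I/R arrays with the one above. The groups did not overlap for Ppp1r1b alone among the 9 genes and for 9.54% of all probes. The largest values were 2.06 for Penk (95% interval -0.39 to 4.51) and 2.04 for Pde10a (95% interval -0.05 to 4.13), neither of which was called. The dimmer Pde10a probe also had 2.04 (95% interval 0.07 to 4.01) and was called at the unadjusted p. With the mean of all probes of a gene, Pde10a was called and Ppp1r1b was not. The call of Ppp1r1b was lost in 13 of the 20 other settings.

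The DHI arrays did not resemble each other. DHI 1 was below all Sham arrays for 8 of the 9 genes, DHI 2 lay within the Sham range for 8 and above all I/R arrays for 9, and DHI 3 was above all I/R arrays for 9 and above all Sham arrays for 4. The call of Ppp1r1b was lost, so that 0 of the 9 genes were called, when Sham 2, Sham 3, any of the I/R arrays, DHI 2, or DHI 3 was left out. The share of all probes called was then between 3.96%, without DHI 2, and 32.5%, without I/R 3. These and the following shares over all probes count calls in either direction. Leaving out DHI 1 gave 4 of 9 called, and 3 with the adjusted p, against 9527 of all 23736 probes with the adjusted p. Leaving out Sham 1 gave 2 of 9, against 16.5% of all probes. The median log2 fold change was 0.29 without DHI 3 and 2.59 without DHI 1, while over all probes 4.74% and 45.2% were then called.

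In DHI versus Sham, which asks whether treated rats differed from sham-operated rats, 0 of the 9 genes were called in limma at the unadjusted or the adjusted p, by the methods' t-test as well, and 3.56% of all probes were called. The groups did not overlap for 0 of the 9 genes and for 18.6% of all probes. The median log2 fold change was -0.27 against 0.02 over all probes, and it was 0.70 without Sham 1, 0.62 without DHI 1, and -1.16 without DHI 3. Without DHI 3, 1 of the 9 genes was called, against 3.43% of all probes. The intervals were wide, from -3.64 to 2.91 for Drd2 and from -2.27 to 0.48 for Pdyn. With 3 arrays per group, differences of either sign within these intervals thus remain compatible with the data.

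Across the arrays the 9 genes followed a similar order. Pearson's r between pairs of the 9 genes over the 9 arrays was between 0.659, for Adora2a with Pdyn, and 0.986, with a median of 0.913 over the 36 pairs. Of 15594 other genes, 57 had an r over 0.9 with the mean z-score of the 9. The 10 most alike were Gnal (r = 0.9895), Gng7, Adcy5, Abcb6, Accn4, Orc5, RGD1309823, Bcl2l10, Rasgrp2, and Cacng5 (r = 0.9464). These are descriptions over arrays that share their groups and carry no test. Gnal and Gng7 encode the G protein subunits and Adcy5 the adenylyl cyclase that link the dopamine and adenosine receptors of the striatum to cAMP.

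Another 28 genes of striatal projection neurons were listed, of which 26 were on the array and 23 were tested. Of all probes tested, 22.3% were called lower in I/R versus Sham, and 15.1% with the adjusted p. In this comparison 9 of the 23 genes fell and 0 rose, with a median log2 fold change of -1.41, and 6 passed the adjusted p. Among these were Scn4b, a sodium channel subunit (-3.32, SE 0.78, adjusted p 0.040), Rasd2, the small G protein Rhes (-3.22), Arpp21, a phosphoprotein regulated by cAMP (-2.83), the kinase Dclk3 (-2.77), and the muscarinic receptor Chrm4 (-2.65). Those that fell at the unadjusted p alone were the phosphatase Ptpn5 (-2.09) and the transcription factors Foxp2 (-1.43) and Foxp1 (-1.16). Scn4b had levels of 2.89, 1.84, and 1.45 in Sham, -1.45, -0.93, and -1.40 in I/R, and -0.57, 2.02, and 2.64 in DHI. Every I/R array was below every Sham array. Chrm4 had levels of 1.43, 1.27, and 0.80, in Sham, closer together than those of Drd1a, Drd2, or Adora2a, and -2.68, -1.72, and -0.06 in I/R.

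Without Sham 1, 6 of the 23 were called in I/R versus Sham, against 39.0% of all probes. This share and the others given here for leaving out an array count calls in either direction. The adjusted calls depended on more arrays, because over all probes the number with an adjusted p under 0.05 and FC over 1.5 was 7471 with all arrays and 0 or 1 when any 1 of the Sham arrays, I/R 1, I/R 2, or DHI 3 was left out. In DHI versus I/R, 5 of the 23 rose, against 11.5% of all probes called higher. These were Scn4b (2.62, SE 0.78), Rasd2 (2.501), Arpp21 (2.05), Dclk3 (2.02), and Strn (0.96). The median over the 23 was 1.22, and 0 passed the adjusted p. Leaving out DHI 1 raised the count of 5 to 14, and 45.2% of all probes were then called. The count was 2 on leaving out I/R 2, against 6.98% of all probes. It was 1 on leaving out I/R 1, DHI 2, or DHI 3, against 5.81%, 3.96%, and 4.74% of all probes. In DHI versus Sham, 0 of the 23 were called in limma, with a median of -0.27.

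The order within groups was shared by most of these genes. Sham 1 was the highest Sham array for 19 of the 23, DHI 1 the lowest DHI array for 19, and DHI 3 the highest for 19. The size of the difference varied: Sham 1 exceeded the mean of Sham 2 and Sham 3 by 3.29 for Syndig1l, 3.17 for Rxrg, a retinoid receptor, and 2.57 for the transcription factor Six3, but by 0.08 for Foxp1 and 0.53 for Dclk3. In I/R versus Sham, Syndig1l, Rxrg, and Six3 had fold changes of -0.93, 0.46, and 0.32, and none was called. The opioid receptors Oprm1 and Oprd1 had fold changes of 0.25 and 0.09 in I/R versus Sham. Sham 1 was below the mean of the other Sham arrays for both, with differences of -0.33 and -0.03, and DHI 3 was the highest DHI array for neither. DHI 1 was the lowest DHI array for Oprd1 but not for Oprm1.

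**Figure D4:**
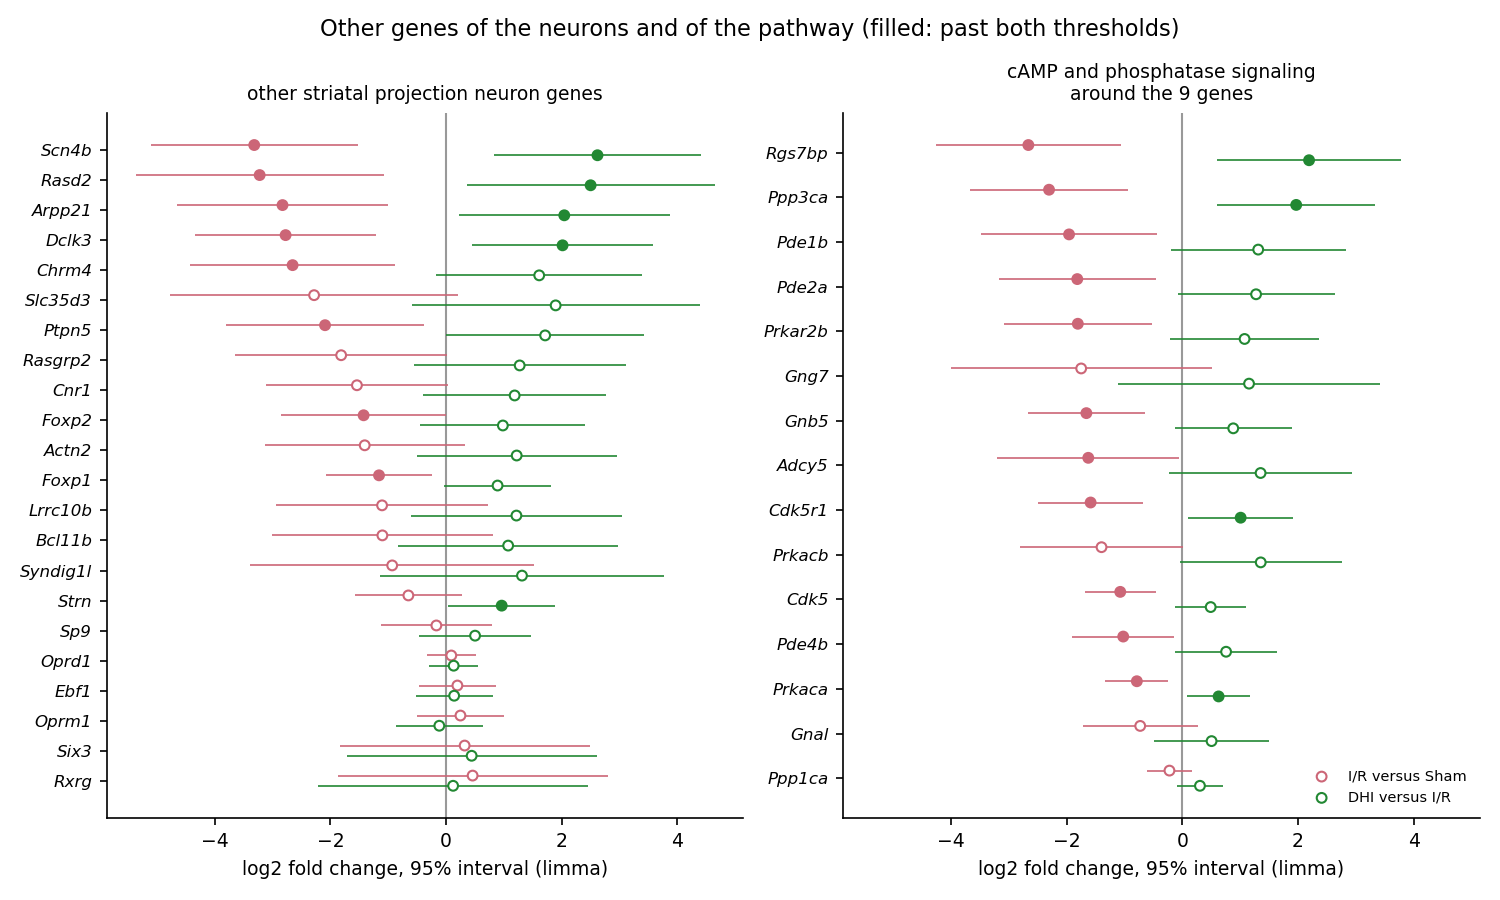
Log2 fold change with 95% interval (x axis, limma) of 22 tested genes of the list of other striatal projection neuron genes (left) and the 15 of cAMP and phosphatase signaling (right), in I/R versus Sham (red) and DHI versus I/R (green), where filled points passed an unadjusted p under 0.05 and FC over 1.5. Of the genes shown, 8 of 22 and 11 of 15 fell in I/R versus Sham, and 5 and 4 rose in DHI versus I/R. Of all probes tested, 22.3% were called lower in the first comparison and 11.5% higher in the second.

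Of 15 genes of cAMP and phosphatase signaling, all tested, 11 fell in I/R versus Sham and 0 rose, against 22.3% of all probes called lower. The median log2 fold change of the 15 was -1.63, and 8 passed the adjusted p, against 15.1% of all probes called lower. The largest falls were those of Rgs7bp, a membrane anchor of RGS proteins (-2.66, SE 0.69), Ppp3ca, the catalytic subunit of calcineurin (-2.31), and Pde1b, a phosphodiesterase (-1.96). The cyclase Adcy5 (-1.63), the phosphodiesterases Pde2a (-1.82) and Pde4b (-1.02), the subunits of protein kinase A Prkar2b (-1.81) and Prkaca (-0.79), the RGS partner Gnb5 (-1.66), and the kinase Cdk5 (-1.07) with its activator Cdk5r1 (-1.59) fell as well. In DHI versus I/R, 4 of the 15 rose, Rgs7bp (2.19), Ppp3ca (1.97), Cdk5r1 (1.01), and Prkaca (0.63), against 11.5% of all probes called higher. With the adjusted p, 0 of the 15 passed. In DHI versus Sham, 0 of the 15 were called. These genes are used in many neurons, and Sham 1 was higher than the mean of the other Sham arrays by 1.04 for Gnal and 1.99 for Gng7 but differed by -0.03 for Gnb5.

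Markers of other cell types moved between the same arrays. The level of a list on an array is the median over its tested genes of the difference from the Sham mean, and for the 9 genes it was 1.95, -0.91, and -0.73 in Sham, -2.14, -1.59, and -1.60 in I/R, and -2.05, -0.27, and 1.497 in DHI. The 11 pan-neuronal markers, of which Eno2 and Snap25 were the brightest, were nearly level in Sham, at -0.08, 0.06, and 0.01, so the high Sham 1 value of the 9 genes was not shared by them. Their level was -3.61, -3.12, and -1.03 in I/R and -1.97, 0.27, and -0.35 in DHI, and 11 of 11 fell in I/R versus Sham (9 with the adjusted p) and 9 of 11 rose in DHI versus I/R. Relative to the mean of all Sham arrays, the 9 genes were 1.48 and 1.53 less reduced than the pan-neuronal markers on I/R 1 and I/R 2. On I/R 3 they were 0.57 more reduced. These differences depend on Sham 1, which raised the Sham mean of the 9 genes but not that of the pan-neuronal markers. Without Sham 1 the 9 genes would be less reduced on every I/R array, and whether they would still be the more reduced on I/R 3 is not given here. The summed level of the pan-neuronal markers ranged from 6.60 to 6.81 in Sham, from 3.42 to 5.75 in I/R, and from 5.16 to 6.87 in DHI. Of 10 cortical projection neuron markers, 10 fell in I/R versus Sham and 8 rose in DHI versus I/R, and their level on Sham 1, -0.38, was the lowest of the Sham arrays. Of all probes tested, 22.3% were called lower in I/R versus Sham (15.1% with the adjusted p) and 11.5% higher in DHI versus I/R.

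Markers of cholinergic neurons, of which the striatum and the basal forebrain hold many, were at 1.43, -0.82, and -0.35 in Sham, -0.99, -0.71, and -0.74 in I/R, and -1.10, -0.83, and 0.69 in DHI (4 of 5 tested). They were thus highest on Sham 1 and DHI 3, as the 9 genes were, and 1 of 4 fell in I/R versus Sham, against 22.3% of all probes called lower. Their summed level ranged from -2.28 to 0.81 in Sham, from -2.40 to -1.99 in I/R, and from -2.23 to -0.41 in DHI, and 0 of the 5 markers were at background on every array. Microglia and macrophage markers were at 4.30, 3.92, and 2.86 in I/R and at 3.67, 0.17, and 0.62 in DHI, where DHI 1, the array on which the 9 genes were lowest, was the highest, and 7 of 8 rose in I/R versus Sham. Their summed level ranged from 3.60 to 3.81 in Sham, from 6.43 to 7.92 in I/R, and from 4.07 to 7.02 in DHI. Of all 23736 probes tested, 4951 were called higher in I/R versus Sham. Choroid plexus markers were at 0.51, 1.51, and 3.76 in I/R and at 5.71, 0.51, and 3.46 in DHI, against -0.27 to 0.40 in Sham (4 of 5 tested), and their summed level ranged from -1.09 to 0.03 in Sham, from 0.37 to 6.55 in I/R, and from 2.91 to 7.10 in DHI. The part of these differences in tissue and cells in the values of the 9 genes was not tested.

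**Figure D5:**
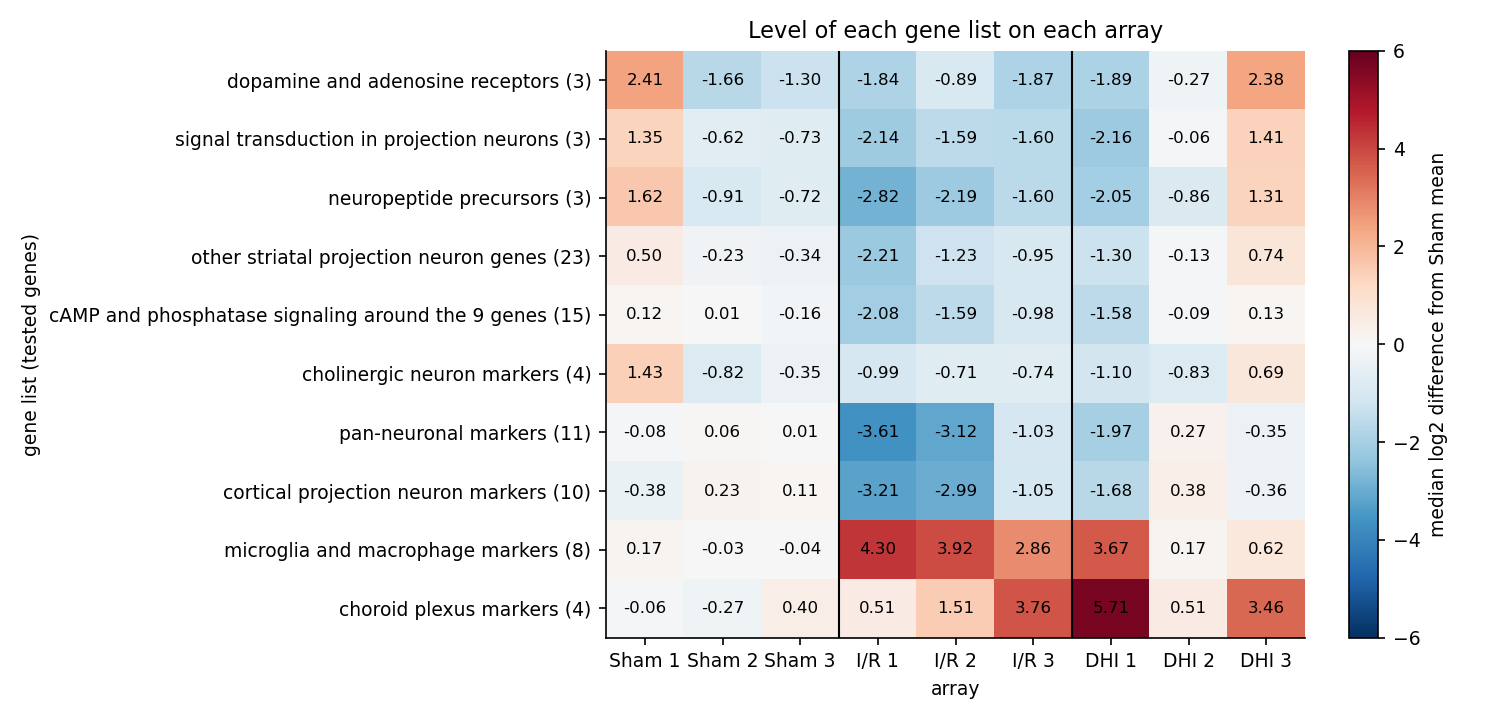
Level of each gene list (rows, with the number of tested genes) on each array (columns), as the median log2 difference from the Sham mean, printed in the cell and coloured from blue (below the Sham mean) to red (above). The striatal rows are highest on Sham 1 and DHI 3, with the cholinergic markers. The pan-neuronal row is nearly level in Sham, while the cortical row has -0.38, 0.23, and 0.11 there. Both are lowest on I/R 1 and I/R 2.

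Of the other lists, markers of GABAergic interneurons fell in I/R versus Sham for 5 of 6 genes and rose in DHI versus I/R for 3 of 6, and hippocampal markers fell for 2 of 5. Thalamic markers rose for 2 of 6 and fell for 1. Astrocyte markers rose for 4 of 8 and fell for 2, endothelial markers rose for 3 of 6, oligodendrocyte markers were called for 0 of 7 in limma, and red blood cell markers fell for 3 of 4 and rose for 1. In DHI versus I/R, microglia and macrophage markers fell for 6 of 8, with a median of -2.45, and astrocyte markers for 2 of 8. Red blood cell markers rose for 3 of 4 and fell for 1, with a median of 2.37, and 1 of 7 oligodendrocyte markers, Mobp, rose. Of all 23736 probes tested, 5289 were called lower and 4951 higher in I/R versus Sham, and 2491 were called lower and 2719 higher in DHI versus I/R.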

How the data were processed

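The authors deposited, for each of the 9 arrays, the spot intensity that Agilent Feature Extraction 10.7.1.1 gave on a linear scale, background-corrected but unscaled. A table of log2 values was deposited by the authors as well. Its distribution is the same on every array, and it followed quantile-normalized log2 intensities (Pearson's r 0.99953). Each of the 30367 probes was expressed as the log2 of its processed signal over the array's 75th percentile, leaving out control and outlier spots and averaging spots of a probe. The 23736 probes well above background on all 3 arrays of a group were tested with limma 3.58.1 in R 4.3.3 (lmFit and eBayes, all 9 arrays, 6 residual degrees of freedom). The procedure was tested on simulated data. Coordinates of probes are those of the files (rn4), and whether a probe lies in an untranslated region was not analysed here. No value column was left unused (0 columns).

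The 9 genes, the gene lists and the tests were chosen with earlier results of these data known. Every one of the 9 genes was described. Of the list of other striatal genes any tested gene could be named, of the cAMP list the called genes and the 3 largest changes in I/R versus Sham, of marker lists the brightest genes, and the 10 genes most alike by Pearson's r. The methods' t-test is the test behind the thresholds of the study. The alternatives were the methods' t-test, array weights, a block for the replicate number, the 2 groups compared alone, the mean of all probes of a gene, no filter, probes well above background on all 9 arrays, normexp (offset 50), no scaling, quantile normalization, the table of log2 values, and leaving out each array. The protein sequences of these genes were not used here, and the values of 1 listed gene are not reported here.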

Additional observations from a re-analysis of the deposited data

How the results depend on the processing

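The median log2 fold change of the 9 genes in I/R versus Sham was -1.77 with all arrays. Under the other settings it lay between -2.12, without Sham 3, and -1.10, without Sham 1. The pooled SD of single arrays within a group was 1.39. That margin is wide for a difference of group means, so staying within it does not show a stable median. The number of the 9 genes called in I/R versus Sham (3) was 2 with quantile normalization, no scaling, the series table, the methods' t-test, or the mean of all probes of a gene, 5 with only the 2 groups compared or with array weights, and 0 to 5 on leaving out an array, and with the adjusted p (0) it was 3, 5, 1 by the methods' t-test, and 0 to 2. In DHI versus I/R the count (1) was 0 with quantile normalization, no scaling, the series table, or the methods' t-test, 2 with normexp, 9 with array weights, and 0 to 4 on leaving out an array, and with the adjusted p (0) it was 9 with array weights and 0 to 3. In DHI versus Sham the counts (0 and 0) were 8 and 8 with array weights, and 0 to 1 on leaving out an array at the unadjusted p. Of the other striatal genes, array weights called 14 (9 before) in I/R versus Sham, 21 (5 before) in DHI versus I/R, and 15 (0 before) in DHI versus Sham. In DHI versus I/R the count was 3 without scaling, 9 with normexp, 2 with only the 2 groups compared, and 0 by the methods' t-test. On leaving out an array this count was 1 to 14 in DHI versus I/R and 0 to 1 in DHI versus Sham. Array weights ranged from 0.0614 for DHI 1 to 131 for DHI 3 and their estimate did not converge, so these values rest mainly on single arrays. The share of all probes called with array weights is not given here. With them the median was 3.50 in DHI versus I/R and 1.99 in DHI versus Sham, where Drd1a (2.33), Drd2 (3.00), Ppp1r1b (1.74), Penk (1.99), Tac1 (1.74), and Pde10a (1.53) turned positive and were called, and Pdyn (0.38) turned positive without a call. The cause of the other changes was not tested.

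With the replicate number as a block, 1 of the 9 genes was called in I/R versus Sham, and none (0) was in DHI versus I/R. The numbers were not taken to pair the rats: the deviations of same-numbered arrays from their group means had r from -0.341 (I/R 2 with DHI 2) to 0.476 (I/R 1 with DHI 1) over 9 pairs of arrays, and 5 of the 9 were at or under 0.1.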

Other observations

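A pair of transcription factors from the lists, Isl1 and Lhx8, were singled out after their values were seen. They were not tested, because neither was well above background on every array of a group. Isl1, of the other striatal genes, had levels of -3.77, -10.04, and -10.05 in Sham, -9.12, -5.15, and -9.66 in I/R, and -9.89, -9.29, and -3.47 in DHI. Lhx8, of the cholinergic markers, had levels of -0.69, -8.76, and -9.38 in Sham, -5.65, -4.18, and -9.60 in I/R, and -9.57, -7.44, and -2.73 in DHI. Both were highest on Sham 1 and DHI 3 within the Sham and DHI groups, and on I/R 2 within the I/R group.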
